A study of Mus musculus with 9 samples.

Results

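Nfkb2, Tnip1, Cd40, Birc3 and Sod2 are 5 genes commonly listed as targets of the transcription factor NF-kB, and their RNA was followed here in mouse lung over 9 expression arrays. Each gene was found by its symbol in the annotation of the array's platform, and each had 1 probe, so the results rest on 5 probes of 10012, or 5 genes of 8841 with a named probe. The genes were chosen by their log2 ratios in all 3 groups of these same arrays. Their changes in the comparisons below are therefore a description and carry no test. Each of 3 groups held 3 samples of lung tissue. The LPS group received an injection of lipopolysaccharide from E. coli, serotype O127:BO as labelled, at 3 mg/kg, and the overventilation group was ventilated mechanically at a pressure of 25 cmH2O for 3 h. The labels name neither the handling of the controls, nor the time from injection to sampling, nor the strain or age of the mice. Samples are numbered within groups but are not tied to animals, so spreads and p-values cover the variation from sample to sample, possibly of technical origin.

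The NF-kB proteins are held inactive in the cytosol by inhibitors of the IkB family. In the canonical route, signals from Toll-like receptors, the interleukin 1 receptor or TNF receptors lead to destruction of the inhibitor and entry of dimers such as RelA and p50 into the nucleus. In the non-canonical route, receptors such as CD40 lead to processing of p100, the product of Nfkb2, into p52, which pairs with RelB. LPS is recognised by TLR4 and is a classical activator of the canonical route in lung macrophages, endothelium and epithelium, and mechanical stretch of lung cells is also known to engage it. Among the 5 genes, Nfkb2 encodes a subunit of the factor itself. Tnip1 encodes ABIN-1, a ubiquitin-binding partner of the deubiquitinase A20 that restrains the pathway. Cd40 encodes a receptor of the TNF receptor superfamily on B cells, dendritic cells, macrophages and activated endothelium. Birc3 encodes the inhibitor of apoptosis protein cIAP2, a ubiquitin ligase at TNF receptor complexes, and Sod2 encodes the manganese superoxide dismutase of the mitochondrion.

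The deposited value of a probe is its ratio to the geometric mean of the 3 control arrays, given here as a log2 ratio, so that the control mean is 0 and a value of 1 is a doubling. Such ratios hold no level of one gene against another, and no statement on abundance is made. For none of the 5 probes were 2 or more arrays at the lower limit of the values, so their distance from that limit is unknown and their values are those deposited. Arrays differed in spread: the interquartile range of the 5710 tested probes was 0.42 to 0.63 on controls, 0.72 to 0.83 on LPS arrays, 0.95 and 0.79 on overventilation arrays 1 and 2, and 1.36 on overventilation array 3. That array also held 110 lone high values, more than 1.5 above every other array, against at most 6 elsewhere, while LPS array 2 held 291 lone low values, against 1 to 41 on the others. For this reason each gene is also given by its percentile among the tested probes of the same array. Of the 9 markers of alveolar cells with a probe, Sftpa1, Sftpc, Sftpd, Abca3 and Napsa of type II and Aqp5, Pdpn, Ager and Cav1 of type I cells, all passed the filter on low values, although Aqp5 was at the lower limit on 4 arrays. Each of the 5 genes is known by its 1 probe alone. At 66 other genes with 2 tested probes, both probes correlated over the 9 arrays with a median of only -0.03 (quartiles -0.36 and 0.26), so a second probe did not in general follow the first.

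The promoters are shown because 3 of the 4 genes with an entry carried the letters that NF-kB dimers are known to bind, in some cases the same letters. Windows of 250 bases before a RefSeq transcription start (build GRCm38.p6) were found for Nfkb2, Tnip1, Birc3 and Sod2, and Cd40 had no entry. They were searched on both strands for the kappa-B consensus of 10 letters, where overlapping matches were merged, and matched letters are in capitals. The windows lie at chr11:54962941-54963190 (minus strand) for Tnip1, at chr19:46304487-46304736 and chr19:46305680-46305929 (plus strand) for starts 1 and 3 of Nfkb2, of the 3 listed, at chr17:13007589-13007838 (plus strand) for Sod2 and at chr9:7873171-7873420 (minus strand) for Birc3.
Tnip1: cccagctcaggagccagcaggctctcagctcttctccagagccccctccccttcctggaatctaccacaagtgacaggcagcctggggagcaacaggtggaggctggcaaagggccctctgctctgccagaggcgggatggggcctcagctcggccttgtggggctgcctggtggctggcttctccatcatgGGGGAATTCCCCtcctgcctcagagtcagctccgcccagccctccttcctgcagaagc
Nfkb2 start 1: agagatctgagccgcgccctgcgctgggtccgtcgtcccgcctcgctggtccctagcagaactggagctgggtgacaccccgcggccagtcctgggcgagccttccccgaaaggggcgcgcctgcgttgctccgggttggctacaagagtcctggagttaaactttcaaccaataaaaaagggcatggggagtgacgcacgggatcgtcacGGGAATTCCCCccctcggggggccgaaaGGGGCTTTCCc
Nfkb2 start 3: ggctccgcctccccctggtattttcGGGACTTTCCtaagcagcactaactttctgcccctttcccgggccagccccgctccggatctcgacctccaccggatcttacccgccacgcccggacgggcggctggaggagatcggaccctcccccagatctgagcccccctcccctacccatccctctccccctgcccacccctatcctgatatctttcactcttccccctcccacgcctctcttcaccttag
Sod2: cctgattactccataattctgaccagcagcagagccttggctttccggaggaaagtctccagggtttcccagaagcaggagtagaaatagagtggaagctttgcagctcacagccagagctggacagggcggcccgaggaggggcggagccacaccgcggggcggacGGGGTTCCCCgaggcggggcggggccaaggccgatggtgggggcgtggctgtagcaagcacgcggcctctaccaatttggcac
Birc3: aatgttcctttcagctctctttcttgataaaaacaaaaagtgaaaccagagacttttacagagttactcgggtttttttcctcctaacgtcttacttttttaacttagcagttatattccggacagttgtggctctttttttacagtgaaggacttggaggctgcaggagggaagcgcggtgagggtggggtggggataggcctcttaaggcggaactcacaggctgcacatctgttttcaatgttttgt
In Tnip1 the matched stretch GGGGAATTCCCC lay 58 to 47 bases before the start. Start 1 of Nfkb2 had GGGAATTCCCC at 39 to 29 bases and GGGGCTTTCC at 11 to 2 bases before it, its start 2 GGAATGTCCC at 236 to 227 bases, and its start 3 GGGACTTTCC at 225 to 216 bases. Sod2 had GGGGTTCCCC at 83 to 74 bases, and these letters were not in the window of Birc3. The stretch of 11 letters GGGAATTCCCC, shared by Tnip1 and start 1 of Nfkb2, stood in 9 of 32851 windows of the table (0.0274%). It was picked as the longest stretch that the matches of these genes share, so this low share is no test. The consensus itself was in 7.25% of all windows and in 10.4% of the 4088 tested genes with a window, which are richer in G and C. The share of G and C was 65.2% in Tnip1, 64.8% at start 1 of Nfkb2, 63.6% in Sod2 and 43.6% in Birc3, against a median of 52.4% over all windows. A match describes the letters only and no binding was measured.

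In overventilated lungs all 5 genes lay above the controls, by 3.01-fold to 3.47-fold on average, and each did so on all 3 arrays. After LPS the average differences were smaller, 1.48-fold to 2.49-fold. They came mostly from LPS arrays 2 and 3 in Nfkb2, Birc3 and Sod2, from array 2 in Cd40, and from arrays 1 and 2 in Tnip1. The median log2 difference over the 5 genes was 1.67 for overventilation and 1.04 for LPS, and both comparisons share the same 3 controls. Over all tested probes the medians were -0.01 and -0.05. Without overventilation array 3 the first of these was 1.16, and without LPS array 2 the second was 0.33. Arrays of overventilation did not overlap the controls, on the higher side, at 9.12% of tested probes, and this held for 5 of the 5 genes, which were picked for it. The same share was 2.24% for LPS, where it held for 1 of the 5, Sod2, by a margin of 0.0039 on the log2 scale. Between overventilation and LPS 5.71% of probes were higher and 5.46% lower without overlap, and none of the 5 genes was among them.

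**Figure D1:**
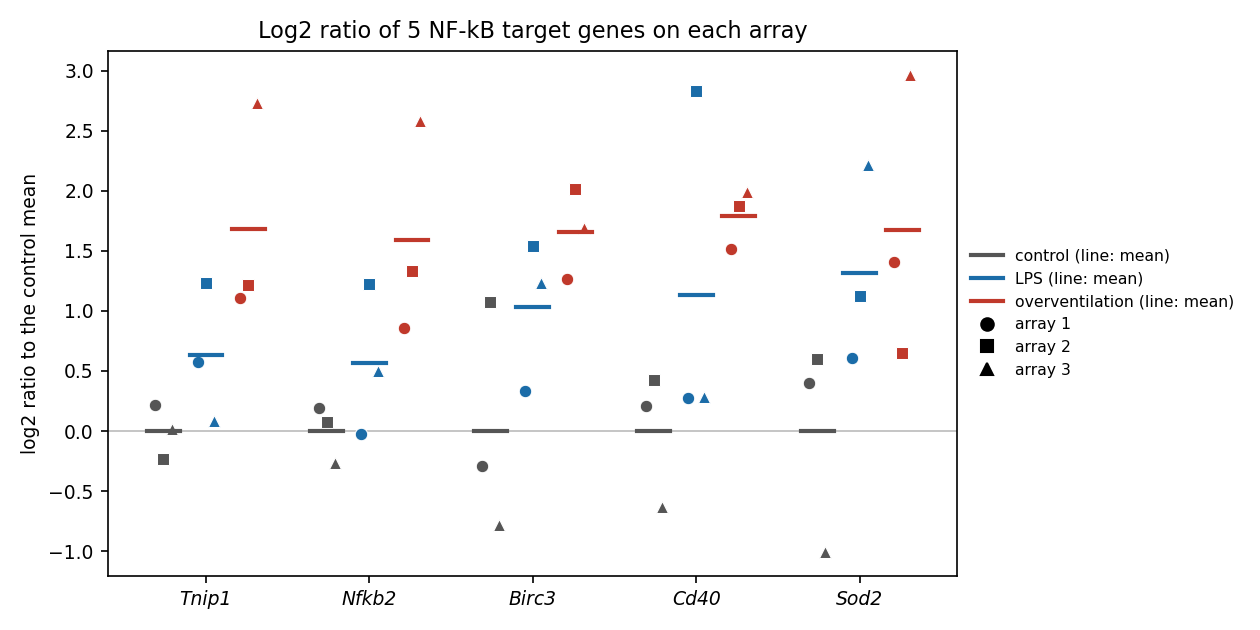
Log2 ratio to the control mean (vertical axis) of the 5 genes (horizontal axis) on each of the 9 arrays, with points coloured by group, the point's shape giving the array number, and a line at each group's mean (n = 3). All overventilation points lie above all control points of the same gene, while for Cd40 the LPS points split into 1 at 2.83 and 2 at 0.27 and 0.28.

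Nfkb2, the subunit gene, stood at 0.20, 0.07 and -0.27 on control arrays 1, 2 and 3, at -0.02, 1.22 and 0.50 after LPS in the same order, and at 0.86, 1.33 and 2.58 after overventilation. All overventilation arrays were above the controls, LPS array 1 lay within them, and overventilation array 3 stood 1.25 above the next array. The means were 1.59 ± 0.89 (SD, n = 3) after overventilation and 0.57 ± 0.62 after LPS, against 0 ± 0.24 in controls, which is 3.01-fold and 1.48-fold. Within its array Nfkb2 was at percentile 90.2, 96.7 and 97.6 of the tested probes on the overventilation arrays, and at 49.1, 95.5 and 86.9 on the LPS arrays. On the controls it was at 65.8, 47.5 and 30.1. Without overventilation array 3 the difference from control was 1.09, and the LPS difference was 0.24 without LPS array 2 and 0.86 without LPS array 1.

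Tnip1, the gene of the inhibitor ABIN-1, stood at 0.22, -0.24 and 0.02 on the controls, at 0.57, 1.23 and 0.08 on the LPS arrays and at 1.10, 1.22 and 2.73 on the overventilation arrays. Here LPS arrays 1 and 2 were above the controls and LPS array 3 was within their range, whereas in Nfkb2, Birc3 and Sod2 array 3 stood above array 1. Overventilation array 3 was again highest, with LPS array 2 next. The means were 1.68 ± 0.91 (SD, n = 3) and 0.63 ± 0.58 against 0 ± 0.23, a 3.21-fold and a 1.55-fold difference, and without overventilation array 3 the first was 1.16 on the log2 scale. Without LPS array 2 the second was 0.33. Its percentiles were 94.4, 95.4 and 98.0 on the overventilation arrays and 84.4, 95.6 and 65.3 on the LPS arrays. On the controls they were 67.1, 18.1 and 65.3, so by percentile LPS array 3 was below control array 1.

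Cd40, the receptor gene, stood at 0.21, 0.43 and -0.63 on the controls, at 0.27, 2.83 and 0.28 on the LPS arrays and at 1.52, 1.87 and 1.99 on the overventilation arrays. The overventilation arrays were closely grouped and the widest gap between groups among the 5 genes was here, 1.09 between the lowest overventilation array and the highest control. The LPS mean rested on array 2, where Cd40 ranked 11 from the top among 5710 probes. By percentile Cd40 was at 98.1, 98.8 and 95.2 on the overventilation arrays and at 69.8, 99.8 and 77.5 on the LPS arrays. On the controls it was at 66.5, 83.6 and 5.66, so LPS arrays 1 and 3 lay within the controls. The means were 1.79 ± 0.25 (SD, n = 3) after overventilation, a 3.47-fold difference, and 1.13 ± 1.47 after LPS, against 0 ± 0.56 in controls. Without LPS array 2 the LPS difference was 0.28. Without overventilation array 3 the overventilation difference was 1.69, a smaller shift than in Nfkb2 and Tnip1.

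Birc3, the gene of cIAP2, stood at -0.29, 1.07 and -0.78 on the controls, at 0.33, 1.54 and 1.24 on the LPS arrays and at 1.26, 2.02 and 1.69 on the overventilation arrays. It had the widest controls of the 5 genes, so the lowest overventilation array was only 0.19 above the highest control, although the means differed 3.15-fold (1.66 ± 0.38, SD, n = 3, against 0 ± 0.96). The LPS mean was 1.04 ± 0.63, a 2.05-fold difference. LPS array 2 lay within the range of the overventilation arrays, and LPS array 3 just below the lowest of them. By percentile the groups overlapped: on control array 2 Birc3 was at 98.4, against 96.1, 99.1 and 93.3 on the overventilation arrays. All LPS arrays, at 72.8, 97.9 and 98.1, were below that control. Leaving out single control arrays moved the overventilation difference between 1.26 and 2.19, and the LPS difference between 0.65 (without control array 3) and 1.57 (without control array 2). The RefSeq gene table lists the symbol Birc2 among the synonyms of Birc3, so older records of both genes can be confused.

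Sod2, the mitochondrial superoxide dismutase gene, stood at 0.40, 0.60 and -1.01 on the controls, at 0.61, 1.13 and 2.21 on the LPS arrays and at 1.40, 0.65 and 2.97 on the overventilation arrays. Both treated groups lay above the controls on every array, but by 0.0039 for LPS array 1 and by 0.045 for overventilation array 2, and control array 3 stood 1.41 below the next control. By percentile the groups overlapped: Sod2 was at 97.3, 83.6 and 98.7 on the overventilation arrays and at 85.5, 94.3 and 99.7 on the LPS arrays, against 78.2, 91.2 and 0.893 on the controls, so overventilation array 2 and LPS array 1 were both below control array 2. The means were 1.67 ± 1.18 (SD, n = 3) after overventilation, 3.19-fold, and 1.32 ± 0.82 after LPS, 2.49-fold, against 0 ± 0.88. Without control array 3 these differences were 1.17 and 0.81. The overventilation difference was 1.03 without overventilation array 3, and the LPS difference was 0.87 without LPS array 3. Sod2 was the gene whose groups of overventilation and LPS were closest, with a difference of 0.36, and this turned to -0.29 without overventilation array 3 and to -0.13 with quantile normalization.

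The highest array was overventilation array 3 for Nfkb2, Tnip1 and Sod2, overventilation array 2 for Birc3 and LPS array 2 for Cd40, and the lowest was control array 3 for all but Tnip1. The median of the 5 was lowest on control array 3 at -0.63, then 0.21, 0.33 and 0.43 on control array 1, LPS array 1 and control array 2, and 0.50 on LPS array 3. It was 1.23 on LPS array 2, 1.26 and 1.33 on overventilation arrays 1 and 2 and 2.58 on overventilation array 3. The median of LPS array 1 thus stood among those of the controls: Nfkb2, Birc3 and Cd40 lay within their control range there, and Tnip1 and Sod2 were above it. Set against the control array of the same number, LPS arrays 1, 2 and 3 differed by 0.35, 1.47 and 0.06 in Tnip1, by 0.62, 0.47 and 2.02 in Birc3, by 0.07, 2.41 and 0.92 in Cd40 and by 0.20, 0.52 and 3.22 in Sod2. In Nfkb2 the differences were -0.22, 1.15 and 0.77. The values of 2.02 and 3.22 are set against control array 3, where Birc3 stood at -0.78 and Sod2 at -1.01. The share of all probes higher in such comparisons was not computed, so no count is drawn from them. The comparison by number rests on the data alone, on a check that cannot establish pairs. On LPS array 2 all 5 were above the controls, and on array 3 Nfkb2, Birc3 and Sod2 were. The share of all probes above the controls on a single array was not computed, and the LPS arrays had wider spreads than the controls. Such counts for single arrays are therefore a description only. By percentile the median of the 5 was 72.8, 95.6 and 86.9 on LPS arrays 1, 2 and 3, and 96.1, 96.7 and 97.6 after overventilation. The controls ranged widely, from 5.66 on array 3 to 66.5 on array 1 and 83.6 on array 2.

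**Figure D2:**
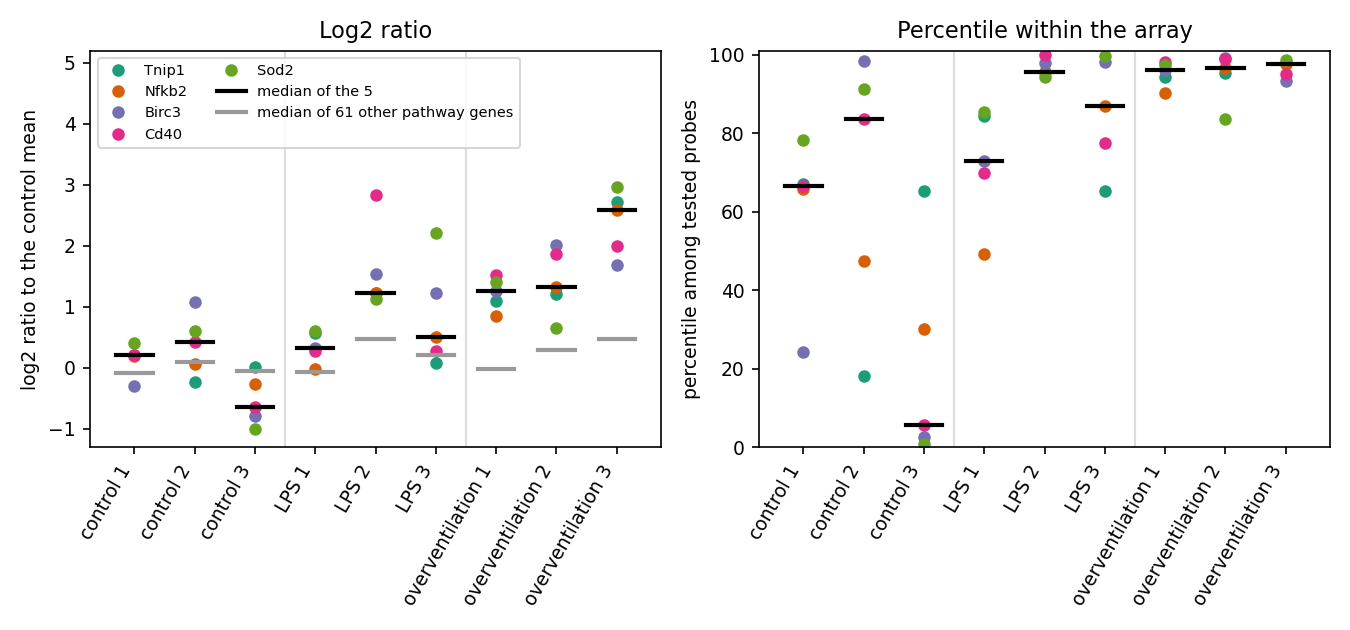
The 5 genes on each array (horizontal axis) as log2 ratio to the control mean (left) and as percentile among the 5710 tested probes of that array (right), with black lines at the median of the 5 and, on the left, grey lines at the median of 61 other genes of the pathway. The step of the black line to 2.58 on overventilation array 3 is one from 96.7 to 97.6 by percentile, a scale that is compressed near its upper end.

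Over the 9 arrays the 10 pairs of the 5 genes had Pearson correlations of 0.54 to 0.94, with a median of 0.75. All pairs share arrays and were picked for a common difference between groups, so these values describe and do not test. After removal of the group means, which leaves the differences between arrays of one group, the median was 0.48. Nfkb2 and Tnip1 had the highest correlation on both scales, 0.94 and 0.84, and overventilation array 3 is the highest point of both. Tnip1 and Birc3 had none left within groups (0.00), and Cd40 and Sod2 little (0.14). The probes of other named genes most like the mean of the 5, by Pearson correlation over the 9 arrays, were those of Nop58 (0.98), Septin11 (0.98), Cdh1 (0.97), Asap1 (0.97) and Vcam1 (0.97). Vcam1, the endothelial adhesion molecule VCAM-1, is the 1 of them on the list of pathway genes. The 5 genes themselves followed their mean less closely, at 0.83 (Sod2) to 0.96 (Nfkb2), although each is part of it. The outside probes were picked as the highest among all tested probes.

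**Figure D3:**
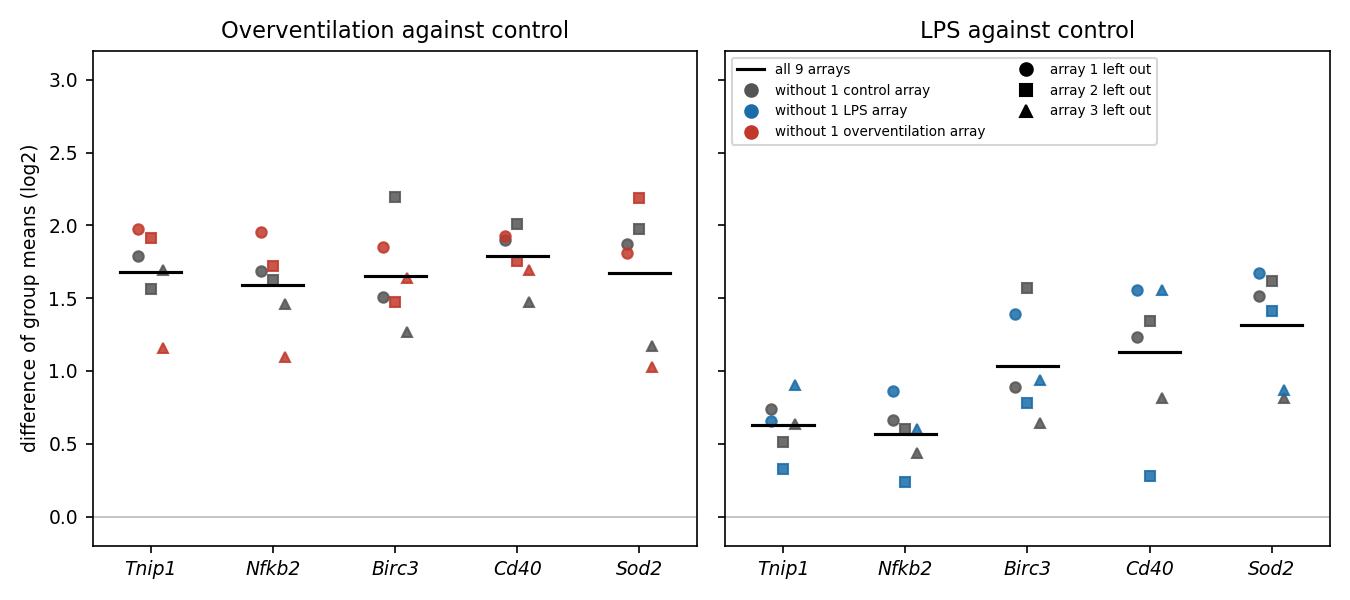
Difference of group means in log2 units (vertical axis) for each of the 5 genes with all 9 arrays (line) and with 1 array left out (points; the colour gives the group of the array left out, the shape its number), for overventilation (left) and LPS (right) against control. Every point stays above 0, and the lowest are those without LPS array 2 for Nfkb2 (0.24), Cd40 (0.28) and Tnip1 (0.33).

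Other genes of the pathway were compared in the same way, with the test that the 5 genes do not have. Their list was also drawn up with earlier results of these data known. Its counts beside the shares of all probes are therefore a description and no independent support. The list held 122 further genes, of which 88 had a probe and 61 passed the filter on low values; 12 of the rest were at the lower limit on all 9 arrays, among them Tnf, Rel and Map3k14, which encodes the kinase of the non-canonical route. By limma's test over all 5710 probes, none of the 61 passed an adjusted p of 0.05 for overventilation against control (lowest 0.193) or for LPS against control (lowest 1), and none of all probes did (0.0%). At an unadjusted p under 0.05, 8 of the 61 were higher and 3 lower after overventilation, where 6.2% and 8.69% of all probes were (14.9% in either direction). After LPS 2 were higher and none lower, where 0.998% and 1.07% of all probes were (2.07% in either direction). Between overventilation and LPS 2 were higher and 3 lower, where 3.57% and 5.94% were (9.51% in either direction). The median log2 difference of the 61 was 0.17 for overventilation and 0.26 for LPS. On the higher side 12 of the 61 (19.7%, against 9.12% of all probes) had overventilation arrays free of overlap with the controls, and on the lower side 5 (8.2%, against 10.5%). For LPS these counts were 3 (4.92%, against 2.24%) and 1 (1.64%, against 4.08%).

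Among the inhibitors and feedback genes, the classical early targets did not share the size of the Tnip1 difference. Nfkbia, the gene of IkB-alpha, stood at 0.06, -0.18 and 0.12 on the controls, at -0.04, 0.29 and 0.89 on the overventilation arrays and at -2.10, 0.97 and 0.90 on the LPS arrays. Its LPS array 1 was far below every other array while the other LPS arrays were above the controls, and the adjusted p for overventilation was 0.859. Tnfaip3, which encodes A20, the partner of the Tnip1 product, had differences of only 0.28 for overventilation (adjusted p = 0.719) and 0.30 for LPS, where all 3 LPS arrays (0.12, 0.35 and 0.43) were above the controls. Cyld, a deubiquitinase gene, lay below the controls on all overventilation arrays, with a difference of -0.42 (adjusted p = 0.589). Of the other subunit genes, Relb had a difference of 0.22 (adjusted p = 0.917), with -1.23, 0.62 and 1.27 on the overventilation arrays, Rela did not pass the filter, with 6 arrays at the lower limit, and Nfkb1 was not analysed here.

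Kinase and adaptor genes lay on both sides of the controls, with a median of 0.08 over 15 genes for overventilation. Bcl10, an adaptor of the antigen receptor route, stood at 0.88, 1.34 and 1.17 on the overventilation arrays against -0.51, 0.56 and -0.05 on the controls (2.19-fold, adjusted p = 0.26). Map3k8, a kinase gene also known as Tpl2, had a 2.02-fold difference (adjusted p = 0.364) and Traf4 a 1.78-fold one (adjusted p = 0.277), each without overlap. On the lower side, Fadd, an adaptor of death receptors, had a difference of -0.75 (adjusted p = 0.325) and Card10 one of -0.81 (adjusted p = 0.446). Tirap, an adaptor of TLR4, was higher on all LPS arrays (1.43, 0.47 and 0.85, against at most 0.26 in controls) and not after overventilation (-0.53, 0.66 and 0.12). In Fadd the LPS arrays were also all below the controls, with a difference of -0.37.

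Receptor genes had a median difference of -0.42 over 12 genes for overventilation, with Cd40 left out. Tlr6, the partner of TLR2 for bacterial lipopeptides, stood at -1.36, -0.99 and -1.67 on the overventilation arrays against -0.28, 0.12 and 0.17 on the controls (difference -1.34, adjusted p = 0.193), while Tlr2 itself stood at 0.85, 0.90 and 0.19 (difference 0.65, adjusted p = 0.582). Tlr4, the LPS receptor, was at the lower limit on 8 arrays. Among the ligands the overventilation arrays of Tnfsf9, the ligand of 4-1BB, lay above the controls (2.10-fold, adjusted p = 0.284). Cd40lg, the ligand of CD40, had differences of -0.09 for overventilation and -0.20 for LPS, and its overventilation arrays at -0.58, 0.39 and -0.08 reached to both sides of the controls. Of the signalling genes beyond CD40, Traf2, Traf6 and Map3k14 were at the lower limit on all arrays, Traf3 was not analysed here, and Traf1 and Traf5 had differences of 0.02 and -0.06.

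Of the 18 target genes 7 were higher without overlap (38.9%, against 9.12% of all probes) and 1 lower (5.56%, against 10.5%), with a median difference of 0.85 for overventilation and 0.44 for LPS. These genes too were listed with earlier results of these data known, so the shares only describe. Vcam1 stood at 1.54, 2.27 and 3.45 on the overventilation arrays against -0.17, 0.77 and -0.60 on the controls (5.35-fold, adjusted p = 0.193). Cflar, which encodes the caspase 8 inhibitor cFLIP, stood at 2.26, 1.68 and 3.02 against 0.54, 0.35 and -0.88 (4.99-fold, adjusted p = 0.193), and its LPS arrays at 0.67, 2.09 and 1.53 were above the controls as well. Gadd45b, a stress response gene, had a 6.02-fold difference that rested on a lone value of 5.43 on overventilation array 3, with 0.91 and 1.43 on the others (adjusted p = 0.26). The cytokine gene Csf2 differed 2.71-fold (adjusted p = 0.493), the prostaglandin synthase gene Ptges 2.22-fold (adjusted p = 0.218), the selectin gene Selp 1.98-fold (adjusted p = 0.4) and the transcription factor gene Irf1 1.88-fold (adjusted p = 0.348), all without overlap. In the other direction, Ccl5, a chemokine for lymphocytes and monocytes, stood at -0.84, -0.70 and -2.42 on the overventilation arrays (difference -1.32, adjusted p = 0.275).

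**Figure D4:**
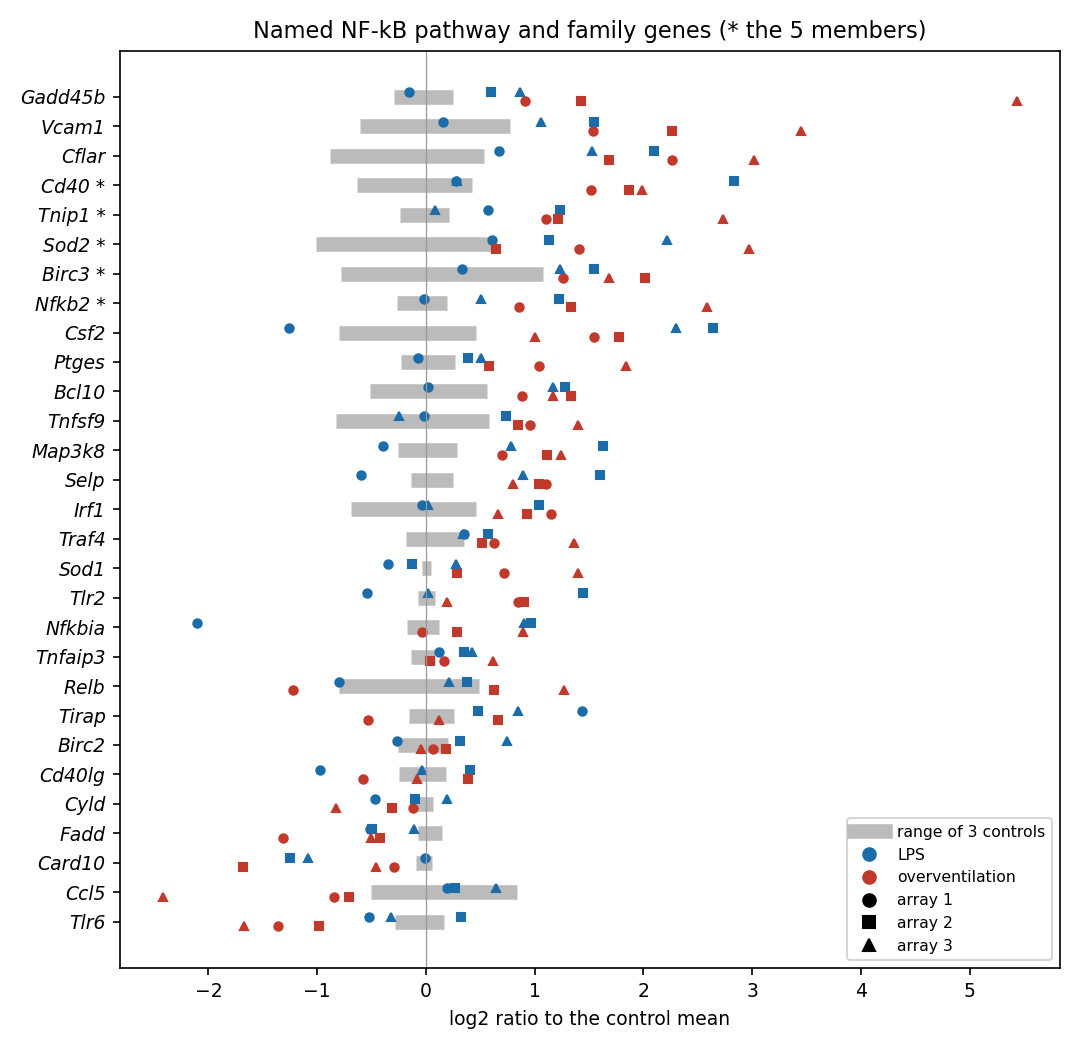
Log2 ratio to the control mean (horizontal axis) of 29 named genes of the pathway and of the families of the 5 genes (marked with an asterisk), ordered by their overventilation difference, with LPS and overventilation arrays as points (shape: array number) and the range of the 3 controls as a grey bar. Nfkbia, Csf2, Selp and Map3k8 have LPS array 1 below the control range and the other LPS arrays above it.

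LPS array 1 was low over much of the pathway. It was the lowest of the LPS arrays in 4 of the 5 genes, in 37 of 60 other pathway genes without ties (61.7%) and in 40.2% of all tested probes, and LPS array 2 was the highest in 4 of the 5, in 34 of the 60 (56.7%) and in 40.1% of all probes. Without LPS array 1 the number of other pathway genes whose LPS arrays all lay above the controls went from 3 to 21 of 61 (34.4%), where that share of all probes was 12.5%. It was 6 (9.84%, against 5.41% of all probes) without control array 1, 10 (16.4%, against 9.3%) without control array 2 and 5 (8.2%, against 5.5%) without LPS array 3. For overventilation the count of 12 went to 26 (42.6%) without overventilation array 1, where the share of all probes was 18.5%, and it was 12 (19.7%, against 11.3%) without array 3.

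The nearest relatives of Birc3 and Sod2 gave a mixed picture. Birc2, the gene of cIAP1, had a difference of 0.07 for overventilation (adjusted p = 0.949) and 0.26 for LPS, Xiap was at the lower limit on all arrays, and Naip2 and Birc5 had differences of -0.23 and -0.07. Sod1, the cytosolic superoxide dismutase gene, stood at 0.71, 0.29 and 1.40 on the overventilation arrays against 0.05, -0.03 and -0.01 on the controls (1.74-fold, adjusted p = 0.324), and at -0.35, -0.13 and 0.28 on the LPS arrays, where Sod2 was higher on all 3. Sod3, the extracellular enzyme, was at the lower limit on all arrays. Of the other mitochondrial and cellular oxidant defence genes, Prdx3 and Gpx1 had overventilation differences of 0.38 and 0.83, and Txnrd2, Cat and Gpx4 of -0.19, -0.55 and -1.01, the last from -3.87 on overventilation array 1, with a lowest limma adjusted p of 0.572.

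In a whole lung, more cells of a type and more RNA per cell cannot be told apart, and Cd40 in particular marks antigen-presenting cells. The B cell list (4 of 8 markers tested) had a median of -0.07 to 0.18 on controls, -0.41 to 0.37 on LPS arrays and 0.05 to 0.41 on overventilation arrays, with Cd79a at -2.20 and Cd79b at 0.41 on overventilation array 1. The dendritic cell list (3 of 7) had one of -0.73 to 0.38, -0.89 to 0.16 and -0.21 to 0.12, with the marker Ccr7 at the lower limit on all arrays. Macrophage and monocyte markers (3 of 9) had medians of -0.18 to 0.13 on controls, -0.53 to 0.88 on LPS arrays and 0.16 to 0.85 on overventilation arrays, with Adgre1 at the lower limit. Their 3 tested markers did not run together on the overventilation arrays: Lyz2 was above the controls on each (1.73, 1.19 and 4.77), while Mrc1 (-0.64, 0.65 and 0.85) and Fcgr1 (0.16, -0.39 and -0.63) overlapped them. Markers of alveolar type I cells (4 of 5) had a median of -0.45 to 0.11, 0.25 to 1.00 and 0.45 to 3.06, the last on overventilation array 3, with Ager at 4.48 and Cav1 at 2.96 there. Type II markers (5 of 7) lay between -0.01 and 0.18, between -0.76 and 0.45 and between -0.60 and 0.27, and those of endothelium (4 of 8) between -0.24 and 0.39, between -0.70 and 0.65 and between 0.06 and 0.47. In these lists the type I markers stood furthest from the controls on overventilation array 3, where Nfkb2, Tnip1 and Sod2 were also highest. That array had the widest spread of all, with an interquartile range of 1.36 over the tested probes. Of the 4 type I markers 2 were higher without overlap after overventilation (50%, against 9.12% of all probes). After LPS 1 was lower without overlap (25%, against 4.08%). A link to the 5 genes was not tested.

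Lists of blood cells, airway cells and fat were read in the same way. Airway markers (2 of 4) had medians of -0.37 to 0.51 on controls, -0.44 to 0.22 on LPS arrays and -0.70 to 0.22 on overventilation arrays. T cell markers (3 of 8) had medians of -0.51 to 0.37 on controls, -0.08 to 0.72 on LPS arrays and -0.49 to -0.01 on overventilation arrays, with Cd3e and Cd8a at the lower limit. Neutrophil markers (4 of 10) had medians of -0.61 to 0.51, -0.88 to -0.24 and -1.04 to -0.15, so neither treated group stood above the controls in them, and Mmp9 was at the lower limit. Platelet markers (2 of 4) had medians of -0.52 to 0.47, -1.0 to -0.17 and -0.02 to 0.40, with Pf4 above the controls on all overventilation arrays and Ppbp below. Adipose markers (3 of 6) were far apart between arrays of 1 group, from -1.70 to 0.93 on controls, from -5.28 to -1.93 on LPS arrays, lowest on LPS array 2, and from -2.21 to -0.36 on overventilation arrays. Hba-a1, the tested 1 of 5 erythroid markers, was also far apart within groups, at -2.15, -0.03 and 2.18 on controls, -2.69, -0.73 and 1.32 after LPS and -3.24, -1.92 and -0.52 after overventilation. The part of these cell types in the differences of the 5 genes was not tested.

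The kappa-B consensus was searched in the promoters of the other pathway genes too. Of the 47 tested ones with a window 11 held a match (23.4%, against 10.4% of all tested genes), among them Nfkbia, Tnfaip3, Cyld, Bcl10, Tlr2 and Irf1. A match stood in 3 of 9 genes whose overventilation arrays lay above the controls, in 1 of 4 whose arrays lay below and in 7 of 34 with overlap.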

How the data were processed

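RNA of mouse lung was measured on 9 arrays. The authors' deposited values are ratios on a linear scale, per the values themselves: in each of 10012 probes the mean log2 ratio of the 3 controls was 0 (largest deviation 2.5e-09). No label names the maker of the array, its dyes, the scanner or a normalization. At 4690 probes 2 or more arrays held a shared floor pattern (tolerance 1e-06 on the log2 scale). These were raised to the highest floor, a ratio of 2.222, and centred on the controls again. Tested were the 5710 probes above it on 3 or more arrays or with unknown distance. Genes came from the platform's annotation (8983 probes with 1 symbol, 1 with several, 1028 with none). Differences of group means were tested in limma 3.58.1 under R 4.3.3 (lmFit, eBayes, two-sided, Benjamini-Hochberg over all tested probes, threshold 0.05), checked on simulated data. The number of arrays limits the precision.

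The 5 genes and all lists were chosen with earlier results of these data known, so the 5 genes have no p-values. Named are the 5 genes, pathway and family genes without overlap against controls, 10 fixed relatives and regulators whatever their values, and the 5 probes most like the mean of the 5. For a gene with several probes, the probe with the fewest arrays at the floor stands for it. Promoters are from RefSeq (GRCm38.p6).

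The deviations of arrays with the same number from their group means correlated at 0.497, 0.247 and 0.199 between LPS and control. As each exceeded 0.1, LPS arrays were set against the control array of the same number, although no label names pairs. Deviations within a group cancel out, so these correlations depend on each other. Arrays of unlike numbers were not correlated. The check therefore cannot show that arrays of the same number are pairs. Between overventilation and control the correlations were 0.508, 0.133 and 0.0334, and no pairing was assumed. Between overventilation and LPS they were 0.496, 0.211 and 0.0383, so number 1 had the highest value in each comparison. The p-values given for single genes use no pairing. Alternatives covered the floor, an offset, normalization, centring, filter, single low or high values, array weights, the replicate block and each array left out.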

Additional observations from a re-analysis of the deposited data

How the results depend on the processing

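The differences of the 5 genes were recomputed under 15 alternatives each, of which 3 leave out arrays of a group not compared. Of 225 such values for single genes 223 kept their direction and moved by less than the SD between replicates, pooled over the groups. This count is no measure of stability. Leaving out 1 of 3 arrays cannot move a difference by more than that SD. The settings for the floor, the offset and single low or high values left the differences of the 5 genes unchanged. The overventilation minus LPS difference of Sod2 reversed, to -0.13 with quantile normalization and to -0.29 without overventilation replicate 3, with a range of -0.29 to 0.87 over arrays left out; the cause was not tested. With arrays left out in turn, the median over the 5 genes ranged from 1.16 to 1.97 for overventilation against control, from 0.33 to 1.39 for LPS against control and from 0.27 to 1.35 for overventilation against LPS. The count of probes called by limma was 0 in each comparison, and at an unadjusted p under 0.05 it was 850 for overventilation against control, 118 for LPS against control, and 543 between the treated groups. With a block for the sample number over all 9 arrays, overventilation included, the count called stayed 0 in all 3 comparisons. The counts at an unadjusted p under 0.05 then became 1200, 314 and 840. This block is not a fit of LPS and control arrays alone. Without LPS replicate 1 the count of 118 became 457. Leaving out single arrays gave 0 to 290 calls for overventilation against control, 0 to 1 for LPS against control and 0 to 226 for overventilation against LPS, the highest without overventilation replicate 2. Other pathway genes without overlap numbered 7 higher (11.5%, against 5.46% of all probes) and 3 lower (4.92%, against 5.43%) for overventilation with quantile normalization, where the shares of all probes fell too. For LPS they numbered 1 higher (1.64%, against 1.73%) and 0 lower (against 2.19%) with quantile normalization. They numbered 0 lower with array medians subtracted (against 4.05%) and 5 higher with single low values missing (8.2%, against 2.54%). With arrays left out the range for overventilation was 12 to 26 higher (19.7% to 42.6%, against 9.12% to 18.5% of all probes). On the lower side it was 5 to 7 (8.2% to 11.5%, against 10.5% to 20.6%). For LPS it was 3 to 21 higher (4.92% to 34.4%, against 2.24% to 12.5%). On the lower side it was 1 to 5 for LPS (1.64% to 8.2%, against 4.08% to 13.6%). Setting single high values to missing was chosen after seeing the data and left these counts as they were. The distance of the 5 probes from the floor is unknown, which limits what can be said of their low values.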
